A study of Homo sapiens with 2 samples.

Results

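The amino acid transporter genes of 7 solute carrier (SLC) families were examined in SAS cells, a long-used line from a human oral cancer. The members were all genes in the deposited table whose symbol is that of a numbered member of family SLC1, SLC3, SLC6, SLC7, SLC36, SLC38 or SLC43. This rule found 43 genes with 400 transcripts, out of 24124 genes with 134092 transcripts. The other 16 genes of these families in GENCODE release 29 were not analysed here. One library came from SAS cells stably carrying the lentiviral plasmid pLKO.AS2 with ASC, and the other from SAS cells with pLKO.AS2 alone. Values with ASC come from the first, and values without it from the second. Where 2 values stand together, the one with ASC comes first. Both lines were kept in DMEM with 10% FBS, 200 μg/ml G418 and 2 μg/ml puromycin. Whether a line is a pool or a single clone, and which promoter drives ASC, is not given in the sources used here. The adaptor ASC is encoded by PYCARD and joins inflammasome sensors to caspase-1. It is unrelated to transport system ASC, named for alanine, serine and cysteine, to which SLC1A4 and SLC1A5 belong.

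Amino acids cross membranes largely through carrier proteins. Exchangers such as SLC7A5, held at the surface by the glycoprotein SLC3A2 (CD98 heavy chain), trade an internal amino acid for an external one. Sodium-coupled carriers of the SLC1, SLC6 and SLC38 families concentrate their substrates, while SLC36 and some SLC38 proteins work at the lysosome, where mTORC1 senses amino acids. Epithelial tumours are known for high SLC7A5, SLC1A5 and SLC7A11. Not every member carries amino acids, since SLC6 also holds carriers of monoamines, taurine and creatine, and SLC43A3 carries nucleobases.

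The ASC library had 31426491 listed reads and the control vector library 31289581. PYCARD stood at 266.5 RPKM (reads per length of transcript, scaled to depth) with the ASC vector and at 1.36 RPKM without it. All 10 markers of squamous epithelium that were looked up, among them KRT5, KRT17 and TP63, lay between 3.78 and 421.0 RPKM. The fibroblast markers found were at most 0.353 RPKM. PTPRC, which marks leukocytes, was at most 0.0542 RPKM, while CD68, another leukocyte marker, was at 24.1 and 25.9 RPKM. Of the endothelial markers CDH5 was at 2.23 and 1.23 RPKM. PECAM1 and VWF were under 1 RPKM in both libraries, and neither was higher with ASC. Each condition had 1 library, so there is no test between conditions. Intervals below are exact (Clopper-Pearson) 95% intervals of the log2 ratio of depth-scaled reads, ASC over control, and cover counting error only. In bulk RNA, fewer cells that carry a transcript and less of it per cell cannot be told apart.

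Of the 43 genes, 28 reached 1 RPKM in either library and were compared, beside 12471 genes of the whole table. On the log2(RPKM + 1) scale none of the 28 was 2-fold higher in the ASC library, where 0.617% of all compared genes were. None was 2-fold lower, against 0.265% of all compared genes. At least 1.5-fold higher was 1 member, SLC1A3, where 2.38% of all genes were. At least 1.5-fold lower was also 1, SLC6A15, where 1.81% of all genes were. The median log2 ratio of the 28 was -0.03, beside 0.01 over all compared genes, and 13 lay above 0, or 46.4% against 52% of all genes. The counting interval lay wholly above 0 for 7 members (25.0%, against 28.5% of all genes) and wholly below 0 for 11 (39.3%, against 27% of all genes).

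**Figure D1:**
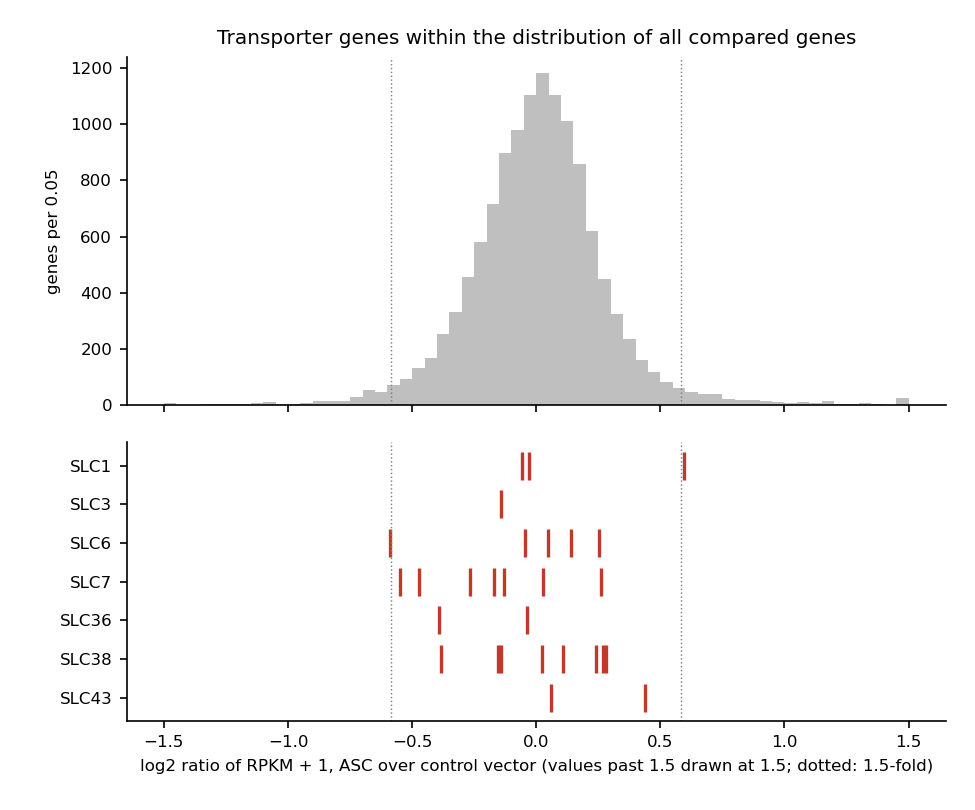
The upper panel counts the 12471 compared genes by log2 ratio of RPKM + 1, ASC over control vector. The lower panel marks each of the 28 compared transporter genes by family, and only SLC1A3, at 0.60, and SLC6A15, at -0.59, lie past the dotted 1.5-fold lines.

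A few genes made up most of the transporter RNA. SLC7A5, SLC3A2, SLC38A2, SLC1A5, SLC38A1 and SLC7A1 held 83.3% of the summed RPKM of the 43 genes with ASC and 83.8% without it. The sum itself was 1622 RPKM with ASC and 1654 without it, a ratio of 0.981. Over all 24124 genes the sum was 477307 and 487224 RPKM, a ratio of 0.980, so the members differed no more than the whole table. SLC7A5 ranked 138th among compared genes with ASC and 133rd without it. These are the carriers of large neutral amino acids, glutamine, small neutral amino acids and arginine, with the heavy chain. At the other end, 15 of the 43 genes were under 1 RPKM in both libraries and held 107 reads with ASC and 116 without it. SLC43A2, a carrier of branched-chain amino acids, was the highest of those left out, at 0.626 RPKM with ASC and 0.691 without it. SLC7A7 was the lowest that was kept, at 1.02 and 0.681 RPKM. The carriers, SLC6A7, SLC6A17, SLC6A20 and SLC38A11, had 0 reads with ASC, which allows up to 3, and 1, 6, 2 and 1 without it.

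**Figure D2:**
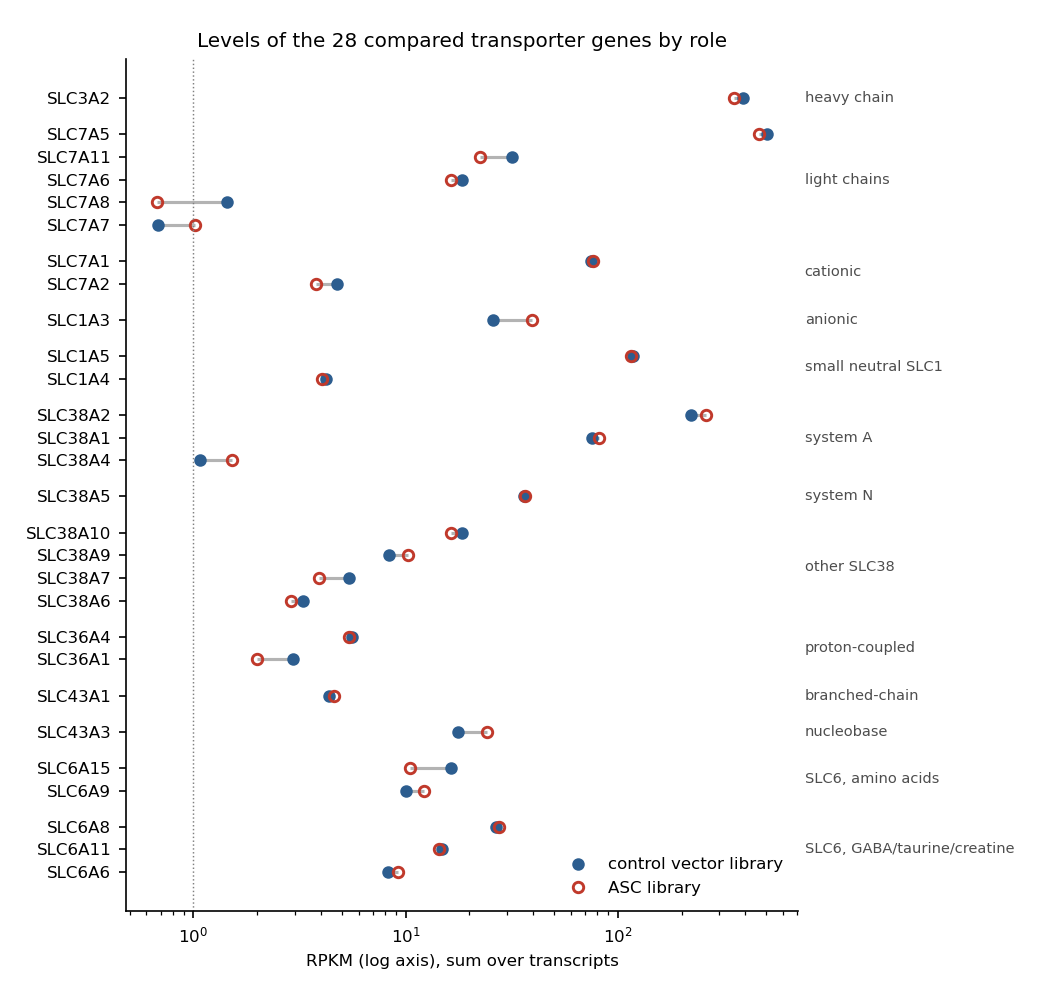
Each of the 28 compared genes is drawn by its RPKM in the control vector library (filled) and the ASC library (open) on a log axis, grouped by role, with 1 RPKM dotted. Most pairs of points touch, and the widest gaps are in SLC7A8, SLC1A3 and SLC6A15.

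Promoter windows of RefSeq (GRCh38.p14, 250 bases before to 50 after a gene's start) were found for 23 of the 28 genes, 42 windows in all. None was found for SLC6A15, SLC7A11, SLC43A3, SLC7A2 or SLC6A6, so these genes were not searched for either pattern below. The 42 windows were searched on both strands for TGATGNAA, the composite element bound by ATF4 with C/EBP proteins in the amino acid response. They were also searched for TGACNNNGC, the core of the antioxidant response element bound by NRF2. In the windows of these genes that held both patterns, the matches did not overlap. TGATGNAA was found in 6 of the 42 windows (14.3%), where 3.62% of all 35116 windows hold it. Those 6 windows belong to SLC1A3, SLC1A4, SLC1A5, SLC3A2, SLC38A1 and SLC7A1. The same 6 genes had log2 ratios of RPKM + 1 between -0.14 in SLC3A2 and 0.60 in SLC1A3, on both sides of 0. Only in SLC7A1, at 0.03, and SLC1A4, at -0.06, did most of the gene's RPKM start at that window. The range therefore cannot speak for the element. TGACNNNGC was found in 7 of the 42 windows (16.7%), where 13.3% of all windows hold it. A match of letters is a description of the window and shows no binding. Of the windows with a match, 5 where listed transcripts start are shown, from the heavy chain, the leucine carrier SLC7A5, the arginine carrier SLC7A1, the serine carrier SLC1A4 and SLC1A3, the member with the highest ratio. Each runs 5′ to 3′ on the gene's strand, with matches in capitals, which read in reverse complement where the match is on the other strand.
SLC7A1, chr13:29595639-29595938, minus strand, both patterns: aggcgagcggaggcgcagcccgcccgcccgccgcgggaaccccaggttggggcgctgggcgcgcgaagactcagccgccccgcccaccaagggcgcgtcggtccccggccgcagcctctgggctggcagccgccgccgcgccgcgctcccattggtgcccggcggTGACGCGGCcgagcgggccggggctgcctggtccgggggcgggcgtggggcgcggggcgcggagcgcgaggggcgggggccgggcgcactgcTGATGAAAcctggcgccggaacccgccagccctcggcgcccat
SLC3A2, chr11:62881449-62881748, plus strand, both patterns: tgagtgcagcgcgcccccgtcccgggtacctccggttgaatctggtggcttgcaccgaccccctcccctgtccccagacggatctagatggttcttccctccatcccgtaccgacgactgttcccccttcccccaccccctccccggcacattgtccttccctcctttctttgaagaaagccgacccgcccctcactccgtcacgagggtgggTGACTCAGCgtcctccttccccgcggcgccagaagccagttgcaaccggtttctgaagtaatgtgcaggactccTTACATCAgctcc
SLC1A4, chr2:64989149-64989448, plus strand, TGATGNAA: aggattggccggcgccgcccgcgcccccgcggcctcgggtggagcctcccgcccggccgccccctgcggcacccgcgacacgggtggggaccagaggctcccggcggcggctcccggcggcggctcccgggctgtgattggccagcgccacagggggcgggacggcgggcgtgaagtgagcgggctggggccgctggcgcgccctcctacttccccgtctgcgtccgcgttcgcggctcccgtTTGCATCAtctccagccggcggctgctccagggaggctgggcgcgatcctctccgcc
SLC7A5, chr16:87869458-87869757, minus strand, TGACNNNGC: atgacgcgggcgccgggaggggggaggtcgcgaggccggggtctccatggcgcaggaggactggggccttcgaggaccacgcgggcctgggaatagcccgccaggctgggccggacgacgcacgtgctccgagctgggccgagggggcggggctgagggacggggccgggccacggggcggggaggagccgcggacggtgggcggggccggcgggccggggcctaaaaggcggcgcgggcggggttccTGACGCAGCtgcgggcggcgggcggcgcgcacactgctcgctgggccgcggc
SLC1A3, chr5:36606356-36606655, plus strand, TGACNNNGC: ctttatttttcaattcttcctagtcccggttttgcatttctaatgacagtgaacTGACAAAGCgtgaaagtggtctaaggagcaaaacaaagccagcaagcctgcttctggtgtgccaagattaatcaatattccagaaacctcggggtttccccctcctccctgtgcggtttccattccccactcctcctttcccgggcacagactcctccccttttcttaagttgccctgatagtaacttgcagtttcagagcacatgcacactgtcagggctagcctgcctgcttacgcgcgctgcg

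The deposited transcripts tell how far each printed window bears on the RNA seen. Transcripts starting within the SLC7A1 window or 50 bases beside it held 98.9% of SLC7A1 RPKM with ASC and 99.5% without it. The SLC1A4 window held 95.4% and 99.7%, and the SLC7A5 window 64.8% and 63.6%. The SLC3A2 window that carries both patterns held only 5.17% and 4.58% of SLC3A2 RPKM. Another SLC3A2 window, without either pattern, held 69.2% and 68.1%. The SLC1A3 window held 83.1% of SLC1A3 RPKM with ASC and 75.2% without it. TGATGNAA in SLC1A3 lies in a different window, at chr5:36596338-36596637, where no listed SLC1A3 transcript starts. No listed SLC38A1 transcript starts at the SLC38A1 window with TGATGNAA either. The SLC1A5 window with TGATGNAA held 6.47% of SLC1A5 RPKM with ASC and 6.89% without it.

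By family, most SLC7 genes were lower in the ASC library, and SLC38 genes lay on both sides of 0. Of 7 compared SLC7 genes 5 lay below 0, where 5985 of all 12471 compared genes did. SLC7A8, 1 of the 5, reached 1 RPKM only in the control library, and SLC7A7, above 0, only in the ASC library. The filter thus bears on the direction of both. The SLC7 median log2 ratio of RPKM + 1 was -0.17. The counting interval lay wholly below 0 for 5 SLC7 genes, where it did for 27% of all genes. All 8 listed SLC7 genes summed to 585.3 against 640.5 RPKM. Among 8 compared SLC38 genes, 5 were above 0, where 52% of all genes were, and the median was 0.07. Their counting intervals lay wholly above 0 for 3, wholly below for 2 and held 0 for 3. All 9 listed SLC38 genes summed to 414.7 against 369.3 RPKM, and SLC38A2 alone was 40.3 RPKM higher with ASC. Medians were -0.03 over 3 SLC1 genes, 0.05 over 5 SLC6 genes, -0.22 over 2 SLC36 genes and 0.25 over 2 SLC43 genes, and SLC3 had 1 compared gene. By substrate, 24 compared genes with an amino acid role, the heavy chain SLC3A2 counted among them, had a median of -0.05. The 4 with another substrate, such as taurine, creatine or nucleobases, had 0.09.

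The heteromeric carriers were lower in the ASC library in most of their chains. Over the whole table, 5985 of 12471 compared genes lay below 0. Of 5 compared light chains, which carry the transport path and need a heavy chain to reach the membrane, SLC7A5, SLC7A6, SLC7A8 and SLC7A11 lay below 0 and SLC7A7 above it. SLC7A8 passed the filter only through the control library and SLC7A7 only through the ASC library, so the filter bears on their directions. SLC3A2 (ENSG00000168003.16, chromosome 11, 62856102 to 62888875), the heavy chain of the light chains, stood at 351.6 RPKM with ASC and 388.1 without it. Scaled for depth, its reads gave a log2 ratio of -0.15 (95% interval -0.18 to -0.13). SLC7A5 (ENSG00000103257.8, chromosome 16, 87830023 to 87869488), the main carrier of leucine and other large neutral amino acids, stood at 464.5 RPKM with ASC and 508.3 without it. Its reads, 71299 against 78413, gave a log2 ratio of -0.14 (-0.16 to -0.13). Both intervals lie below 0, and both ratios lie well within 1.5-fold.

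SLC7A11, the light chain of the cystine and glutamate exchanger and the cell's source of cystine for glutathione, had the lowest ratio among light chains above 5 RPKM. It stood at 22.5 RPKM with ASC and 31.6 without it, 1.41-fold lower, with 7646 against 10816 reads. The log2 ratio of its reads was -0.51 (95% interval -0.55 to -0.46). Under the 9 alternative settings its log2 ratio lay between -0.50, with CPM, and -0.44, with a pseudocount of 3. Nearly all of it came from a single transcript, ENST00000280612.9, with 98.8% of SLC7A11 RPKM with ASC and 99.1% without it. SLC7A11 (chromosome 4, 138164097 to 138242349) overlaps the antisense gene SLC7A11-AS1 over 8.97% of its exon bases, but that gene had only 11 and 20 reads.

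SLC7A6, which exchanges arginine for neutral amino acids, stood at 16.3 RPKM with ASC and 18.5 without it, with a log2 ratio of reads of -0.24 (95% interval -0.32 to -0.17). The library kit does not mark strand, and 44.4% of SLC7A6 exon bases are shared with SLC7A6OS on the opposite strand, which stood at 9.21 and 8.86 RPKM. Reads of this pair cannot be told apart by strand, so the level of SLC7A6 is uncertain. The light chain SLC7A8, a further carrier of neutral amino acids, was low, at 0.670 RPKM with ASC and 1.44 without it, 2.16-fold lower in plain RPKM. It had 65 against 130 reads, with a log2 ratio of reads of -1.01 (95% interval -1.46 to -0.57). Its log2 ratio of RPKM + 1 was -0.55, and with a pseudocount of 0.1 it passed 2-fold. SLC7A7, the partner of SLC3A2 in renal and gut cells, had 57 against 45 reads, and its interval of -0.25 to 0.93 holds 0.

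Set against each other, SLC3A2 and the light chain sum, most of which was SLC7A5, kept their proportion. SLC3A2 came to 0.696 of the summed light chain RPKM with ASC and to 0.692 without it. Within the light chains SLC7A5 made up 92.0% with ASC and 90.7% without it. The share of SLC7A11 was 4.45% with ASC and 5.64% without it. SLC3A1, the other heavy chain, had no read with ASC and 2 without it, and SLC7A9, its light chain, had 1 and 4.

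The cationic carriers bring arginine, lysine and ornithine into the cell without a heavy chain. SLC7A1, the widespread member, was nearly equal, at 76.5 RPKM with ASC and 75.2 without it, with a log2 ratio of reads of 0.01 (95% interval -0.02 to 0.04). SLC7A2, an inducible relative, stood at 3.78 and 4.76 RPKM, with a log2 ratio of reads of -0.36 (-0.48 to -0.24). SLC7A1 thus held nearly all of the cationic carrier RNA in both libraries.

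SLC1A3, a sodium-coupled carrier of glutamate and aspartate best known from glia, was the member with the highest log2 ratio of RPKM + 1 and of reads. It stood at 39.5 RPKM with ASC and 25.8 without it, 1.53-fold higher, with 4658 against 2896 reads. The log2 ratio of SLC1A3 reads was 0.68 (95% interval 0.61 to 0.75). SLC1A3 (ENSG00000079215.13, chromosome 5, 36606355 to 36688334) was past 1.5-fold on the RPKM + 1 scale at 0.60, but at 0.56 with a pseudocount of 3 and 0.52 after subtraction of the median of its 50 neighbouring genes it was not. Its main transcript, ENST00000265113.8, stood at 22.7 RPKM with ASC and 14.1 without it. ENST00000613445.4, which starts at the same base, stood at 2.12 and 0.696 RPKM. A transcript with a start further downstream, ENST00000381918.3, stood at 4.25 and 3.29 RPKM. All SLC1A3 transcripts that start at the printed window or within 50 bases of it came to 32.8 and 19.4 RPKM, so most of the difference lay there. The other glutamate carriers were close to absent, with SLC1A1 at 11 and 10 reads, SLC1A2 at 2 and 0 and SLC1A7 at 0 and 1.

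Both exchangers of small neutral amino acids in family SLC1 were nearly equal. SLC1A5, a major route of glutamine entry, stood at 115.6 RPKM with ASC and 117.9 without it, with a log2 ratio of reads of -0.05 (95% interval -0.09 to -0.01). SLC1A5 shares 23.4% of its exon bases with the antisense gene AC008622.2 on the opposite strand. No values were found under that name, and reads of the pair cannot be told apart by strand. SLC1A4, which carries alanine, serine and cysteine, stood at 4.04 and 4.24 RPKM, and its interval of -0.25 to 0.07 holds 0. SLC1A4 turned to 0.12 on the RPKM + 1 scale when the median of its neighbours was subtracted.

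The system A carriers of family SLC38, which take up glutamine and other neutral amino acids with sodium, were all higher in the ASC library. Over all compared genes 52% lay above 0. The system A sum was 344.7 against 297.9 RPKM. SLC38A2, whose RNA is induced when amino acids are scarce, stood at 261.6 RPKM with ASC and 221.3 without it, 1.18-fold higher, with a log2 ratio of reads of 0.23 (95% interval 0.20 to 0.25). SLC38A1 stood at 81.5 and 75.5 RPKM, with a log2 ratio of reads of 0.09 (0.06 to 0.12). SLC38A4 was low, at 1.52 and 1.07 RPKM with 167 against 123 reads, and a log2 ratio of reads of 0.43 (0.09 to 0.78). None of the 3 reached 1.5-fold on the RPKM + 1 scale. They lie in 1 stretch of chromosome 12, between 46183063 and 46832408, where the median log2 ratio of the 50 nearest genes was 0.01. In SLC38A2, transcripts annotated as protein coding held 45.0% of RPKM with ASC and 46.3% without it. Transcripts annotated for nonsense-mediated decay held 23.0% and 22.1%, so the split between them was alike in both libraries.

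Other SLC38 genes lay on both sides of 0. SLC38A5, a system N carrier of glutamine, asparagine and histidine, stood at 36.6 RPKM with ASC and 36.04 without it, with an interval of -0.11 to 0.06, and its log2 ratio of RPKM + 1, 0.02, was -0.02 with CPM and -0.07 with the highest transcript. SLC38A10 stood at 16.4 and 18.4 RPKM, with an interval of -0.19 to -0.02, and 18.5% of its RPKM with ASC and 23.5% without it came from transcripts with a retained intron. SLC38A9, the lysosomal arginine sensor that signals to mTORC1, stood at 10.2 and 8.33 RPKM, but its interval of -0.03 to 0.32 holds 0. SLC38A7, a lysosomal exporter of glutamine and asparagine, stood at 3.90 and 5.39 RPKM, 1.38-fold lower, with a log2 ratio of reads of -0.32 (95% interval -0.49 to -0.15). SLC38A6 was low at 2.90 and 3.30 RPKM, with an interval of -0.61 to 0.03.

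The proton-coupled carriers and the branched-chain facilitators were all under 6 RPKM, and SLC43A3 was higher. SLC36A1, which moves small neutral amino acids out of lysosomes, stood at 2.00 RPKM with ASC and 2.94 without it, 1.47-fold lower, with a log2 ratio of reads of -0.52 (95% interval -0.71 to -0.33). SLC36A4, a carrier of proline and tryptophan, stood at 5.43 and 5.60 RPKM, with an interval of -0.29 to 0.10, and its log2 ratio of RPKM + 1, -0.04, was 0.34 with the highest transcript. SLC43A1, a facilitator for branched-chain amino acids, stood at 4.58 and 4.36 RPKM, with an interval of -0.27 to 0.15, and its log2 ratio of RPKM + 1, 0.06, was -0.06 with CPM and -0.27 with the highest transcript. SLC43A3, the nucleobase carrier, came after SLC1A3 by log2 ratio of RPKM + 1 and of reads, at 24.2 and 17.6 RPKM, with a log2 ratio of reads of 0.50 (0.40 to 0.60). SLC43A3 shares 29.9% of its exon bases with the locus AP000781.2 on the same strand, and how the authors' counting treats such reads is not given in the sources used here.

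In family SLC6 the amino acid carriers differed in opposite directions. SLC6A15, a sodium-coupled carrier of branched-chain amino acids and proline, had the lowest log2 ratio of RPKM + 1 of all 28 members, while SLC7A8 was lower in plain RPKM and in reads. It stood at 10.5 RPKM with ASC and 16.4 without it, 1.55-fold lower, with 1432 against 2345 reads. The log2 ratio of SLC6A15 reads was -0.72 (95% interval -0.81 to -0.62), and on the RPKM + 1 scale it was -0.59, or -0.52 with a pseudocount of 3, which is short of 1.5-fold. SLC6A9, the glycine carrier, stood at 12.2 and 10.1 RPKM, with a log2 ratio of reads of 0.20 (0.08 to 0.33). SLC6A9 shares 7.83% of its exon bases with CCDC24 on the opposite strand, whose log2 ratio of RPKM + 1 was 0.45.

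The SLC6 carriers of GABA, taurine and creatine were close. SLC6A8, the creatine carrier, stood at 27.5 RPKM with ASC and 26.6 without it, with an interval of -0.05 to 0.12, and its log2 ratio of RPKM + 1, 0.05, was -0.10 with the highest transcript and -0.02 after subtraction of its neighbours. SLC6A11, a GABA carrier, stood at 14.3 and 14.8 RPKM, with an interval of -0.16 to 0.02. SLC6A6, the taurine carrier, stood at 9.21 and 8.26 RPKM, with a log2 ratio of reads of 0.18 (0.08 to 0.27). The monoamine carriers SLC6A2 and SLC6A4 had 14 and 3 reads in the ASC library and 12 and 1 in the control library.

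Of 28 members with at least 50 reads in each library, among which SLC43A2 takes the place of SLC7A7, 9 had a transcript that held at least 10% of the gene's RPKM in either library and whose share differed by at least 10 percentage points. That is 32.1%, where 24.9% of all genes met the same rule. These shares are estimates from short reads that several transcripts have in common, and no interval can be given for them. In SLC6A15 the difference was uneven. Its most abundant transcript in the control library, ENST00000266682.9, had 657 reads with ASC and 1340 without it, with 35.9% and 46.9% of SLC6A15 RPKM. SLC6A15 transcript ENST00000450363.3, annotated with an earlier end, had 508 and 661 reads. SLC6A6 showed a difference between coding and non-coding forms. The transcript ENST00000618278.4, annotated for nonsense-mediated decay, held 6.23% of SLC6A6 RPKM with ASC and 17.9% without it, while the coding ENST00000622186.4 held 62.6% and 49.8%.

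Lower genes showed the same kind of unevenness on fewer reads. The main SLC38A7 transcript, ENST00000219320.8, was nearly equal at 2.38 RPKM with ASC and 2.48 without it, so the lower SLC38A7 sum came from its other transcripts. In SLC7A8, transcripts starting at the downstream window at chr14:23154344-23154643 stood at 0.264 RPKM with ASC and 0.964 without it. Those starting at the upstream window at chr14:23183611-23183910 stood at 0.406 and 0.417 RPKM, though 0.179 of the first value is SLC7A8 transcript ENST00000525062.1 with only 4 reads. These SLC7A8 values rest on 27 and 76 reads downstream and on 38 and 52 upstream. The main SLC43A1 transcript, ENST00000278426.7, held 51.3% of SLC43A1 RPKM with ASC and 69.6% without it. In SLC36A4 the share of ENST00000534116.1 was 39.9% and 26.8%. The remaining genes past the rule were SLC38A4, SLC38A6 and SLC43A2, all under 4 RPKM.

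**Figure D3:**
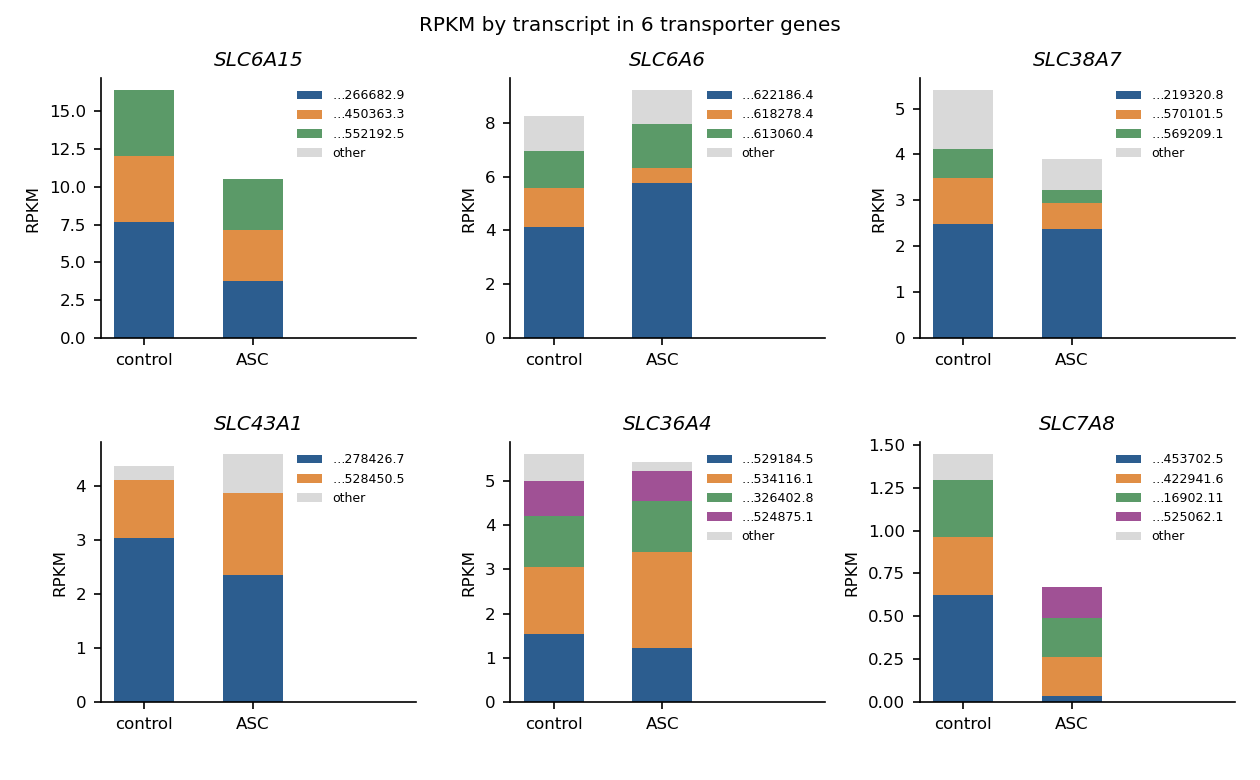
Stacked bars give the RPKM of each transcript with at least 10% of its gene's RPKM in either library (identifier ends in the keys), with all others in grey, for 6 of the 9 genes whose transcript shares differed. In SLC7A8 the downstream-start form ENST00000453702.5 takes 43.3% of the control bar and 5.37% of the ASC bar.

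Related genes were read beside the carriers. Among 15 compared amino acid transporters of other families, 9 lay above 0, where 52% of all compared genes did. Their median log2 ratio of RPKM + 1 was 0.08, and none of the 15 passed 1.5-fold in either direction. MFSD12, which brings cysteine into lysosomes, stood at 30.4 RPKM with ASC and 42.1 without it. The mitochondrial carriers SLC25A38, for glycine, and SLC25A13, for aspartate and glutamate, had log2 ratios of 0.31 and -0.30, and SLC25A40, a mitochondrial glutathione carrier, had -0.21.

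The amino acid response runs from the kinase GCN2 (EIF2AK4) through ATF4 to genes that include several of these carriers. The median over its 21 compared genes was 0.10, and 15 of them lay above 0, where 52% of all compared genes did. The only one past 1.5-fold was CHAC1. CHAC1, which degrades glutathione, stood at 21.9 RPKM with ASC and 12.9 without it. TRIB3, a feedback inhibitor of ATF4, stood at 73.7 and 53.2 RPKM, CEBPB at 31.3 and 23.0, and ATF3 at 24.2 and 18.9. These were picked for the largest absolute log2 ratios and do not stand for the whole list. ATF4 itself was nearly equal, at 350.9 and 349.6 RPKM. In this list 6 genes lay below 0, among them ASNS at 197.4 and 199.8 RPKM and DDIT4 at 238.7 and 277.5. Among 21 compared genes of amino acid sensing to mTORC1 none passed 1.5-fold, with a median of 0.04. LAMTOR4, of the lysosomal scaffold, stood at 64.8 and 91.8 RPKM, while the small GTPases RRAGC and RRAGB had log2 ratios of 0.34 and -0.33 and DEPDC5, of their inhibitor complex, had -0.27.

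None of 17 compared enzymes of amino acid use passed 1.5-fold, with a median of 0.00. GCLC and GCLM, which start glutathione synthesis from the cysteine that SLC7A11 supplies, were both lower in the ASC library, at 8.17 against 11.1 and 9.61 against 12.7 RPKM. GSS, which completes it, was higher, at 74.7 against 57.0 RPKM, and the arginase gene ARG2 stood at 10.6 against 7.12 RPKM. The 12 compared partners and regulators of the carriers had a median of 0.04. The only one past 1.5-fold was SGK1, a kinase known to raise the activity of several carriers, at 31.7 RPKM with ASC and 5.97 without it. LAPTM4B, which brings SLC3A2 to lysosomes, stood at 70.2 against 99.7 RPKM, and CLTRN (listed as TMEM27), a partner of SLC6 carriers in kidney, at 2.65 against 3.70. NFE2L2, which encodes NRF2, stood at 59.5 against 82.7 RPKM, lower in the same library as SLC7A11, GCLC and GCLM. Whether these differences belong together was not tested.

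**Figure D4:**
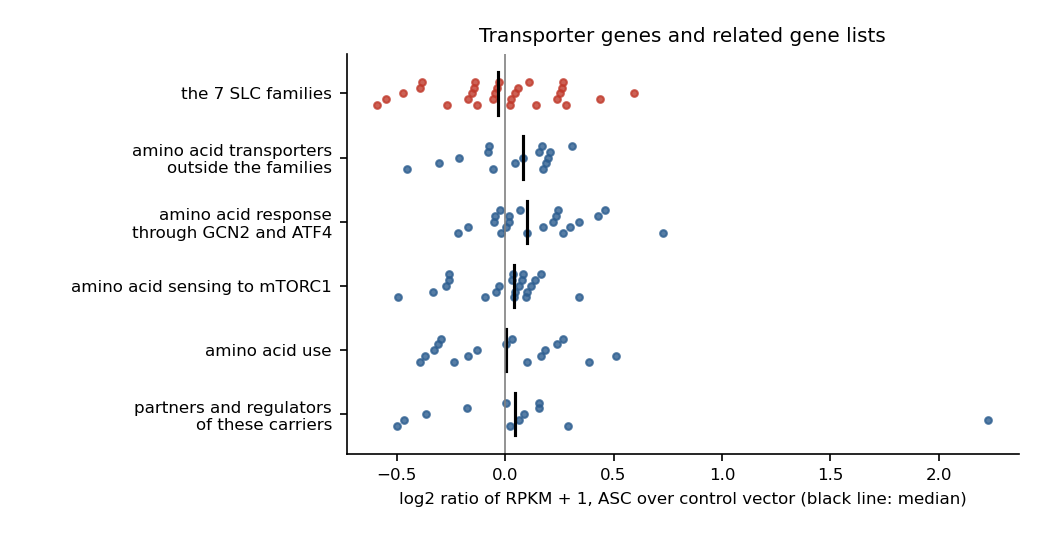
Dots are log2 ratios of RPKM + 1, ASC over control vector, of the compared genes of the 7 SLC families (top) and of 5 related lists, with the median of each as a black line. The medians lie between -0.03 and 0.10, and SGK1 at 2.23 is the only gene past 2-fold.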

How the data were processed

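Poly(A) RNA of 2 SAS lines was sequenced with a TruSeq kit, per the labels' protocols. Per the file headers, the table that the authors deposited holds reads and RPKM for each transcript, and the fractional reads are taken as estimated counts. The submitters' processing notes name hg38, and the sources used here do not give aligner, quantifier or annotation. RPKM and reads were summed per gene, after 284 of 285 gene names turned into dates had been restored. Genes that reached 1 RPKM with or without ASC were compared by the log2 ratio of RPKM + 1. Intervals use the rounded estimated counts scaled to listed reads. The ratio and interval steps were tested on simulated data. All members of at least 1 RPKM were named, and up to 4 genes per related list by absolute log2 ratio. For the amino acid response ATF4, ASNS and DDIT4 were given besides. The values of 1 listed gene under 1 RPKM are not reported here. The members and lists were chosen with earlier results of these data known. The 9 alternatives were pseudocounts of 0.1 and 3, no filter, a filter at 5 RPKM, ratios centred on their median, TMM scaling with edgeR 4.0.16, CPM from reads, the highest transcript, and subtraction of the median of 50 neighbouring genes. Python 3.11.15, pandas 2.3.3 and scipy 1.17.1 were used, with GENCODE release 29 for positions, transcript types and older symbols.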

Additional observations from a re-analysis of the deposited data

How the results depend on the processing

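The count of members 1.5-fold higher was 1 and became 0 with a pseudocount of 3 RPKM and 0 after subtraction of neighbouring genes. The count 1.5-fold lower was 1 and became 2 with a pseudocount of 0.1, where SLC7A8 joined SLC6A15 and also made 1 member 2-fold lower, 2 with CPM, again through SLC7A8, and 0 with a pseudocount of 3. No member was 2-fold higher under any of the 9 alternatives. The median log2 ratio of members lay between -0.07, with the highest transcript, and -0.00, with a filter at 5 RPKM. None of the alternatives turned the direction of SLC1A3 or SLC6A15. Ratios near 0 changed sign in SLC1A4, SLC36A4, SLC38A5, SLC43A1 and SLC6A8 under 1 or 2 alternatives each. When only a gene's highest transcript was taken, the log2 ratio of SLC38A7 was -0.04 in place of -0.38, that of SLC36A4 0.34 in place of -0.04, that of SLC6A15 -0.86, that of SLC6A6 0.40 in place of 0.14, that of SLC7A6 -0.39 in place of -0.17 and that of SLC7A2 -0.11 in place of -0.27. In all, 11 of 25 members moved by more than the half-width of their counting interval under that setting. SLC7A7, SLC7A8 and SLC38A4 were not compared under that setting. No paired analysis was possible because each group has 1 library. Low members limit what can be read, since 130 reads or fewer leave SLC7A8 an interval of -1.46 to -0.57.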

Other observations

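SLC6A11, a GABA carrier best known from the nervous system, had 2035 reads with ASC and 2131 without it. A copy of the SLC7A5 sequence, SLC7A5P1, was listed with 24.3 and 36.7 estimated reads, and SLC7A5P2 with less than 1 in each. SLC6A12 and SLC6A13, carriers of betaine and GABA on chromosome 12, had 6 and 1 reads with ASC and 6 and 4 without it.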
